A study of Mus musculus with 6 samples.

Results

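Acute-phase genes encode secreted proteins whose production rises in inflammation, and C/EBP factors are basic leucine zipper transcription factors that bind as dimers and are known activators of many of them. C/EBP beta and C/EBP delta are the members of the family that inflammatory cytokines such as IL-6 and IL-1 are known to induce, and promoters of acute-phase genes often carry binding sites for NF-kB or STAT3 as well. In heart muscle, lipocalin 2 and haptoglobin are known as inflammation-linked secreted proteins. Here 9 such genes were followed across 6 RNA-seq libraries of HL-1 cells, atrial heart muscle cells of a mouse tumour that expressed the SV40 large T antigen. The acute-phase genes were Lcn2, Hp, Saa3 and Cp, and the C/EBP factor genes were Cebpa, Cebpb, Cebpd, Cebpg and Cebpz. They were taken by gene symbol from the 22913 genes of the deposited tables, where all 9 were found. The list was chosen on earlier results of this same comparison, in which several of its genes had lower counts in the HSPA1A libraries. The differences given below are therefore a description of these libraries and no independent test.

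Some cells had received a plasmid for overexpression of HSPA1A, a stress-inducible HSP70 chaperone, and the cells they were set against a control plasmid (Ctrl). Both plasmids went in by Lipofectamine 2000, and polyadenylated RNA was sequenced from 3 HSPA1A and 3 Ctrl libraries. The labels give harvest of the transfected cells after 48 h, in a protocol that names only the HSPA1A plasmid. They do not say whether the replicates were separate cultures. The p-values weigh the difference between groups only against the spread of these libraries within groups, and that spread may be technical. The plasmid's gene is called human in the labels. Reads were counted on mouse genes, and mouse Hspa1a had 17, 20 and 11 reads in HSPA1A libraries 1 to 3 against 10, 17 and 11 reads in Ctrl libraries 1 to 3. Mouse Hspa1b had 56, 94 and 74 reads in HSPA1A against 75, 76 and 66 reads in Ctrl libraries. Counts of the plasmid's own transcript were not analysed here, so the labels could not be checked by it.

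Total counts lay between 23849656 and 26897086 per library. The first principal component of log2 CPM (counts scaled to library size), with 33.2% of the variance, placed HSPA1A libraries 1 and 3 at 17.6 and 19.7, but HSPA1A library 2 at -15.7, on the side of the Ctrl libraries at -8.99 to -4.92. The gene labelled Yam1 took 2.70%, 1.58% and 2.53% of counts in HSPA1A libraries 1 to 3 against 1.86%, 1.18% and 1.23% in Ctrl libraries 1 to 3. Its log2 fold change was 0.72 ± 0.21 (SE), with overlap between the groups. What these reads stem from was not tested. Of the heart muscle markers, Tnnt2 averaged 42.0 ± 11.7 CPM in HSPA1A libraries and 39.2 ± 4.5 CPM in Ctrl libraries (SD, n = 3 each), and Gata4 averaged 32.8 ± 2.8 and 32.3 ± 1.4 CPM. Of the sarcomere and calcium release markers that define working heart muscle, Actc1 had 0 reads in each HSPA1A library and 1, 0 and 2 reads in Ctrl libraries 1 to 3, and Ryr2 had at most 6 reads in any library. The heart muscle list had 14 of its 18 genes in the table, and Tnnt2 and Gata4 made up most of its sum. Absent were Myl7, Myl3, Pln and Sln, while Actn2 had at most 1 read and Tnni3 at most 4 in any library. The name of the cells is taken from the labels. Marker levels summed over the heart muscle list were 73.3 to 99.6 CPM in HSPA1A and 76.1 to 86.1 CPM in Ctrl libraries. Those of the fibroblast list, led by Col3a1 and Col1a2, were 787 to 928 and 851 to 887 CPM. In the same list Dcn averaged 17.7 ± 3.2 CPM in HSPA1A and 18.3 ± 1.4 CPM in Ctrl libraries, and Pdgfra 3.64 ± 0.89 and 4.18 ± 0.18 CPM. Lum and Thy1 had at most 1 read in any library.

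The cells in which these genes are best known are hepatocytes, neutrophils, macrophages and adipocytes. The leukocyte marker Ptprc had 0 reads in each HSPA1A library and 1, 1 and 0 reads in Ctrl libraries 1 to 3, and the hepatocyte marker Alb had at most 3 reads in any library. Adipoq, the adipocyte marker, had 0 reads in all but Ctrl library 2, which had 2. Summed over the leukocyte list, of which 7 of 10 genes were in the table, levels were 18.1 to 27.2 CPM in HSPA1A and 18.96 to 22.65 CPM in Ctrl libraries, most of it from Cd14. Hepatocyte markers, 6 of 9 in the table, summed to 0.911 to 1.11 CPM in HSPA1A and 0.561 to 0.870 CPM in Ctrl libraries, most of it from Cyp2e1. Neutrophil markers, 6 of 9 in the table, summed to 2.03 to 6.42 and 2.93 to 4.28 CPM, most of it from S100a8. Adipocyte markers, 3 of 6 in the table, summed to 80.0 to 96.2 and 82.9 to 87.1 CPM, nearly all from Adipor2. Endothelial markers, 6 of 7 in the table, summed to 0.982 to 1.18 CPM in HSPA1A and 0.676 to 0.962 CPM in Ctrl libraries. The part of these cell types in the results was not tested.

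Promoter sequences of 300 bases, from 250 before to 50 after the start site, were found for 6 of the 9 genes in the RefSeq table of build GRCm38.p6. They are shown for the 3 acute-phase genes among them because C/EBP factors are known to act at such promoters. Capitals mark a match to TTGCNNAA on either strand, a C/EBP motif built from the family's known TTGC core. All sequences run 5′ to 3′ along the gene.
Lcn2, chr2:32387690-32387989, minus strand: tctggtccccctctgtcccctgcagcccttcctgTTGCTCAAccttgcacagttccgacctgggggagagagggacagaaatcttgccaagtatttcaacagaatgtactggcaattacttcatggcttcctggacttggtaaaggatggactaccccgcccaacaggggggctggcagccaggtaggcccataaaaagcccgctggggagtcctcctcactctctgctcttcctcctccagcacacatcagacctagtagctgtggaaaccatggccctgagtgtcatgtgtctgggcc
Saa3, chr7:46715627-46715926, minus strand: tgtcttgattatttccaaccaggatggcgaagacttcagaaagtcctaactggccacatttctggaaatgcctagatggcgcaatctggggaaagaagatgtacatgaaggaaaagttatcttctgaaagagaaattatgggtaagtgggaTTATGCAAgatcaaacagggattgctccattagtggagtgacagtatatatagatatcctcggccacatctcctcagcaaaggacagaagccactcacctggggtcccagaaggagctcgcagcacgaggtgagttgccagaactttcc
Cp, the downstream of its 2 start sites, chr3:19956999-19957298, plus strand: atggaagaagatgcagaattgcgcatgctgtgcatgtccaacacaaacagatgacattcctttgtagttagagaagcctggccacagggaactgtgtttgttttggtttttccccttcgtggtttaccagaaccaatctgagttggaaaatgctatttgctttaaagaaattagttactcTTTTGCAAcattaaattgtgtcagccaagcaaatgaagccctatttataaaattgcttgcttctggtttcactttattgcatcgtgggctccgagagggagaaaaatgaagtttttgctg

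Each of these 3 windows held 1 match, at -216 to -209 from the start site in Lcn2, -99 to -92 in Saa3 and -70 to -63 in Cp. The upstream window of Cp held 0 matches, as did the windows of Cebpa, Cebpb and Cebpg. Of all 32851 promoter windows in the table, 10.8% held at least 1 match. The bases G and C made up 56.3% of the Lcn2 window, 46.0% of the Saa3 window and 40.0% of the downstream Cp window, against 67.3% in Cebpa, 80.7% in Cebpb and 71.7% in Cebpg, and the motif itself is rich in A and T. The STAT motif TTCNNNGAA and the NF-kB consensus, searched on both strands, had 0 matches in any of these windows, where 8.30% and 4.51% of all windows held them. A match is a stretch of letters and shows no binding.

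Lcn2 encodes lipocalin 2, which withholds iron from bacteria by binding their siderophores, and its gene has 6 or 7 exons per coding transcript (chromosome 2, 32384633 to 32388252, minus strand, GRCm38). It had 469, 361 and 756 reads in HSPA1A libraries 1 to 3 against 1495, 2026 and 1937 reads in Ctrl libraries 1 to 3. Scaled to library size this was 20.02, 13.33 and 31.29 CPM in the HSPA1A libraries, while the Ctrl libraries had 56.15, 81.25 and 73.3 CPM. HSPA1A library 2, which lay beside the controls on the first principal component, had the lowest Lcn2 level of all, and the groups did not overlap. The mean fell to 21.5 ± 9.1 CPM in HSPA1A, against 70.2 ± 12.8 CPM in Ctrl libraries (SD, n = 3 each). It was thus 3.27 times lower, and the log2 fold change was -1.71 ± 0.24 (SE), with a 95% interval from -2.235 to -1.185. In bulk RNA, fewer cells that express a gene and less of its RNA per cell cannot be told apart.

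Hp encodes haptoglobin, which binds free haemoglobin in plasma (chromosome 8, 109575128 to 109579172, minus strand, 5 exons). It was near the lower limit of detection, with 2, 5 and 1 reads in HSPA1A libraries 1 to 3 against 17, 23 and 34 reads in Ctrl libraries 1 to 3. The 8 reads in HSPA1A and 74 in Ctrl libraries gave a ratio 8.86 times lower in HSPA1A cells, with an exact binomial 95% interval from 4.27 to 21.3 that covers counting error only. The Ctrl libraries alone lifted Hp over the filter on low counts, so a difference between the groups was built into its passing.

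Saa3 encodes serum amyloid A3, the form of this acute-phase apolipoprotein that mice make mainly outside the liver (chromosome 7, 46711998 to 46715700, minus strand). Its level was 3.46, 3.14 and 4.39 CPM in HSPA1A libraries 1 to 3, from 81, 85 and 106 reads, against 5.07, 6.58 and 7.23 CPM in Ctrl libraries 1 to 3, from 135, 164 and 191 reads. HSPA1A library 2 was again the lowest, and the highest HSPA1A library lay below the lowest Ctrl library. The log2 fold change of -0.78 ± 0.17 (SE; 95% interval -1.17 to -0.40) did not pass the threshold, an adjusted p under 0.05 over all tested genes.

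Cp encodes ceruloplasmin, the copper-carrying ferroxidase that helps load iron onto transferrin (chromosome 3, 19957054 to 20009145, plus strand). It stood at 49.7, 60.2 and 59.2 CPM in HSPA1A libraries 1 to 3 against 76.6, 69.5 and 72.7 CPM in Ctrl libraries 1 to 3. Here HSPA1A library 1 was the lowest and the groups did not overlap, but the difference was small, at a log2 fold change of -0.37 ± 0.08 (SE; 95% interval -0.54 to -0.20), and did not pass the threshold. Cp overlaps Hps3 on the other strand over 13201 bases of gene span, introns included. Hps3 had a log2 fold change of 0.08 ± 0.07 (SE), and the sources used here do not give whether reads were assigned by strand.

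**Figure D1:**
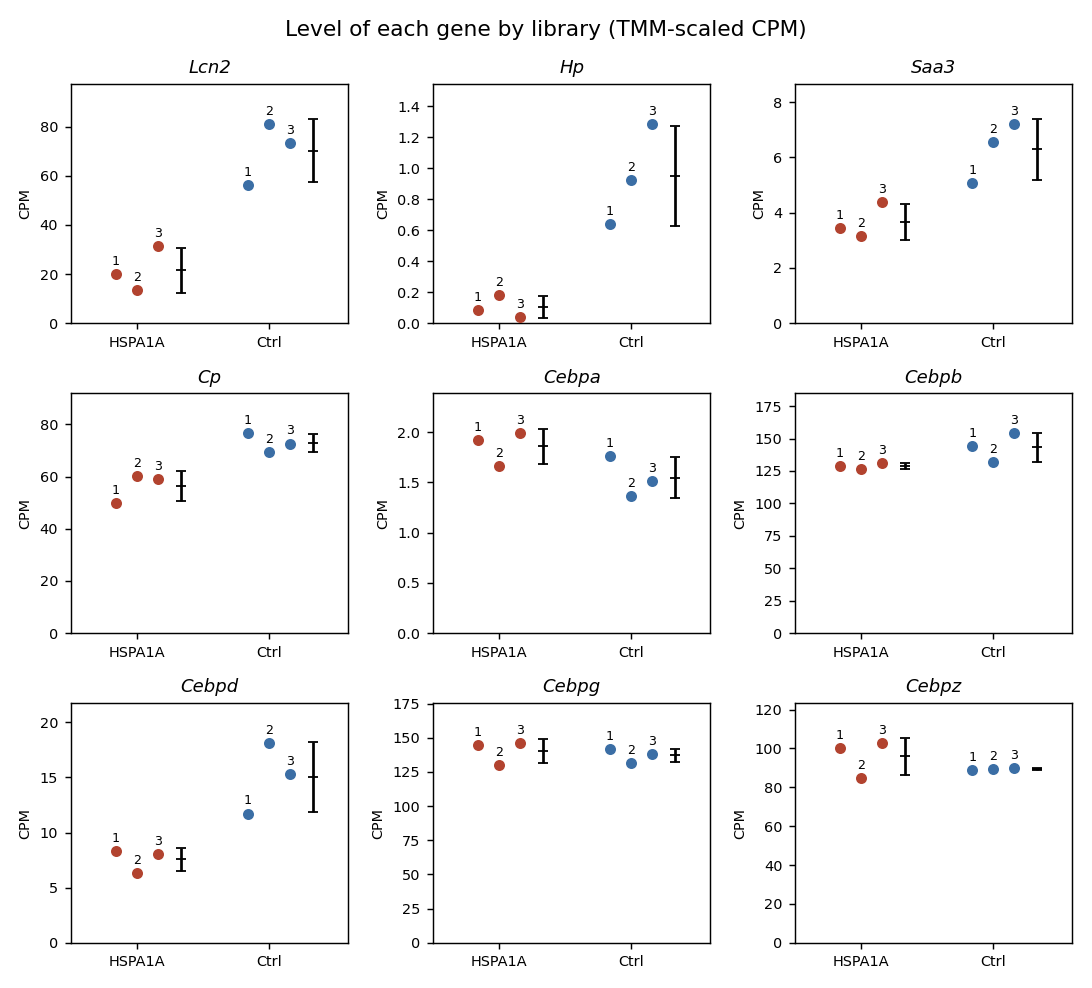
CPM scaled by TMM (y axis, from 0) of the 9 genes in each of 3 HSPA1A (left) and 3 Ctrl (right) libraries; numbers beside points are replicate numbers and bars show mean and SD. In Lcn2, Hp, Saa3, Cp, Cebpb and Cebpd every HSPA1A point lies below every Ctrl point, and Ctrl library 1 is the lowest control for Lcn2, Hp, Saa3 and Cebpd.

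Cebpd, the gene of C/EBP delta, was the C/EBP factor gene that differed most. It has 1 exon in each coding transcript (chromosome 16, 15887286 to 15891031, plus strand). Its level was 8.28, 6.35 and 8.07 CPM in HSPA1A libraries 1 to 3, from 194, 172 and 195 reads, against 11.7, 18.1 and 15.3 CPM in Ctrl libraries 1 to 3, from 312, 451 and 404 reads. As with Lcn2 and Saa3, HSPA1A library 2 was the lowest of the 6 and Ctrl library 1 the lowest control, and the groups did not overlap. The mean fell to 7.57 ± 1.06 CPM in HSPA1A, against 15.03 ± 3.19 CPM in Ctrl libraries (SD, n = 3 each). It was thus 1.99 times lower, and the log2 fold change was -0.99 ± 0.16 (SE), with a 95% interval from -1.35 to -0.64. Cebpd overlaps Spidr on the other strand over 1808 bases, and Spidr had a log2 fold change of -0.0015 ± 0.12 (SE). The deposited tables call Cebpd a pseudogene, while GENCODE M21 annotates it as protein coding.

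Cebpb, the gene of C/EBP beta, lies on chromosome 2 (167688915 to 167690418, plus strand, 1 exon). It stood at 128.5, 126.3 and 131.4 CPM in HSPA1A libraries 1 to 3 against 144, 131.9 and 154 CPM in Ctrl libraries 1 to 3. The highest HSPA1A and the lowest Ctrl library were almost level. The log2 fold change was -0.15 ± 0.06 (SE; 95% interval -0.29 to -0.02) and did not pass the threshold. Cebpb overlaps Tmem189 on the other strand over 908 bases, and Tmem189 had a log2 fold change of 0.06 ± 0.07 (SE).

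The other C/EBP genes overlapped between the groups. Cebpa, whose product drives terminal differentiation of fat and myeloid cells, was scarce, with 45, 45 and 48 reads in HSPA1A libraries 1 to 3 against 47, 34 and 40 reads in Ctrl libraries 1 to 3, and the 95% interval of its log2 fold change ran from -0.18 to 0.70. Cebpg, whose product lacks an activation domain of its own and acts through dimers with other leucine zipper factors, averaged 140 ± 8.8 CPM in the HSPA1A libraries and 137 ± 5.1 CPM in Ctrl libraries (SD, n = 3 each), with a 95% interval of the log2 fold change from -0.10 to 0.17. Cebpa overlaps Gm45091 on the other strand over 313 bases, and Cebpg overlaps Gm45095 on the other strand over 353 bases. Cebpg also overlaps Gm44836, annotated as sense intronic, over 1140 bases and Gm45094 over 617 bases on its own strand. Strand would not separate reads there. All overlaps given here are of whole gene spans, introns included, and shared exon bases were not counted. Cebpz carries the family's name but encodes a nucleolar CCAAT-binding protein of ribosome assembly without the leucine zipper. Its level was 100.1, 84.8 and 102.7 CPM in HSPA1A libraries 1 to 3, on both sides of the 89.0, 89.4 and 90.03 CPM of Ctrl libraries 1 to 3, with HSPA1A library 2 the lowest. The 95% interval of its log2 fold change was -0.06 to 0.26. Cebpz overlaps Cebpzos on the other strand over 1301 bases, and Cebpzos had a log2 fold change of 0.05 ± 0.08 (SE).

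Across all 9 genes, 3 passed an adjusted p of 0.05 and fell in HSPA1A cells, namely Lcn2 (adjusted p = 0.0192), Hp and Cebpd (adjusted p = 0.0483 each; quasi-likelihood test of edgeR, Benjamini-Hochberg adjusted over all 12827 tested genes). Hp had passed the filter on low counts only through the Ctrl libraries, so nothing is read from its call. Over all tested genes, 0.156% were called lower and 0.0234% higher. None of the 9 was called higher, by edgeR or DESeq2, and the 6 with an unadjusted p under 0.05 in edgeR were all lower. Of all 12827 tested genes, 1102 had an unadjusted p under 0.05 in edgeR, and 556 of these were higher. Every HSPA1A library lay below every Ctrl library for 6 of the 9, where 7.17% of all tested genes had this order and 7.30% the opposite one. Since the list was chosen on this comparison, nothing is read from these shares. By DESeq2, which called 0.296% of tested genes lower, 5 of the 9 were called lower, with Saa3 and Cp added.

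**Figure D2:**
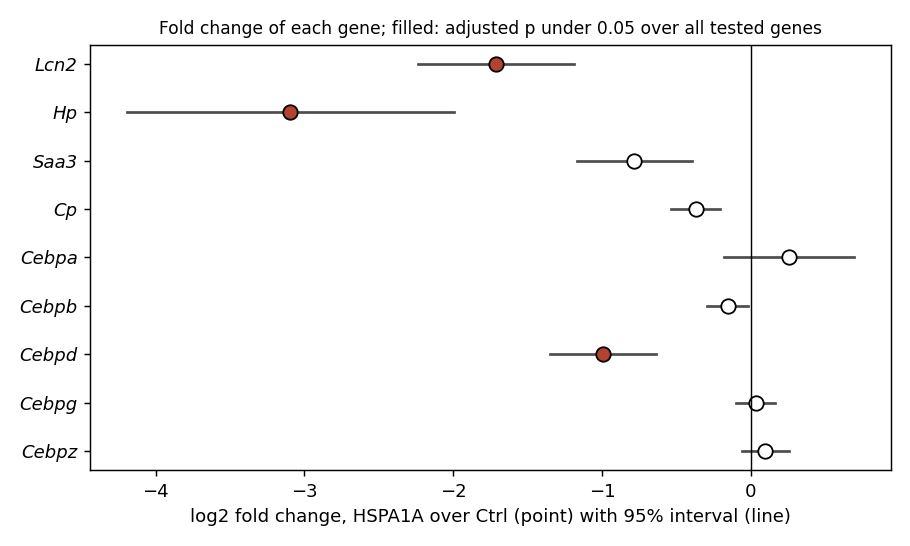
Log2 fold change of HSPA1A over Ctrl (x axis) for each of the 9 genes, with its 95% interval as a line; filled points have an adjusted p under 0.05 over all tested genes. Lcn2, Hp and Cebpd lie at -1.71, -3.09 and -0.99, and Cebpa, Cebpg and Cebpz lie at 0.26, 0.03 and 0.10 with intervals that span 0.

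The calls depended on which libraries were in the fit. Without HSPA1A library 2, 5 of the 9 were called lower (Lcn2, Hp, Saa3, Cp and Cebpd) and Cebpz higher at a log2 fold change of 0.18, in a fit that called 4.94% of all tested genes lower and 5.27% higher. Each other fit that left out a library called at most 1 gene higher and at most 14 lower over all tested genes. The calls of both Lcn2 and Cebpd ended without HSPA1A library 1, Ctrl library 2 or Ctrl library 3, and that of Cebpd also without HSPA1A library 3. The call of Hp held in 1 of these 6 fits, without HSPA1A library 2. Over the 6 fits that left out a library, the log2 fold change ranged from -2.08 to -1.45 for Lcn2, -3.81 to -2.73 for Hp, -1.14 to -0.84 for Cebpd, -0.93 to -0.67 for Saa3 and -0.42 to -0.29 for Cp. In an edgeR fit with a Yam1 covariate, itself unevenly spread over the groups, Lcn2 was at -1.88, Cebpd at -0.89 and Hp at -2.24. That fit called 0 of the 9 (adjusted p = 0.197 for Lcn2, 0.673 for Cebpd and 0.627 for Hp) and 8 of all 12827 tested genes lower. It had 5 of the 9 at an unadjusted p under 0.05, while 310 of all tested genes were higher at that p.

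**Figure D3:**
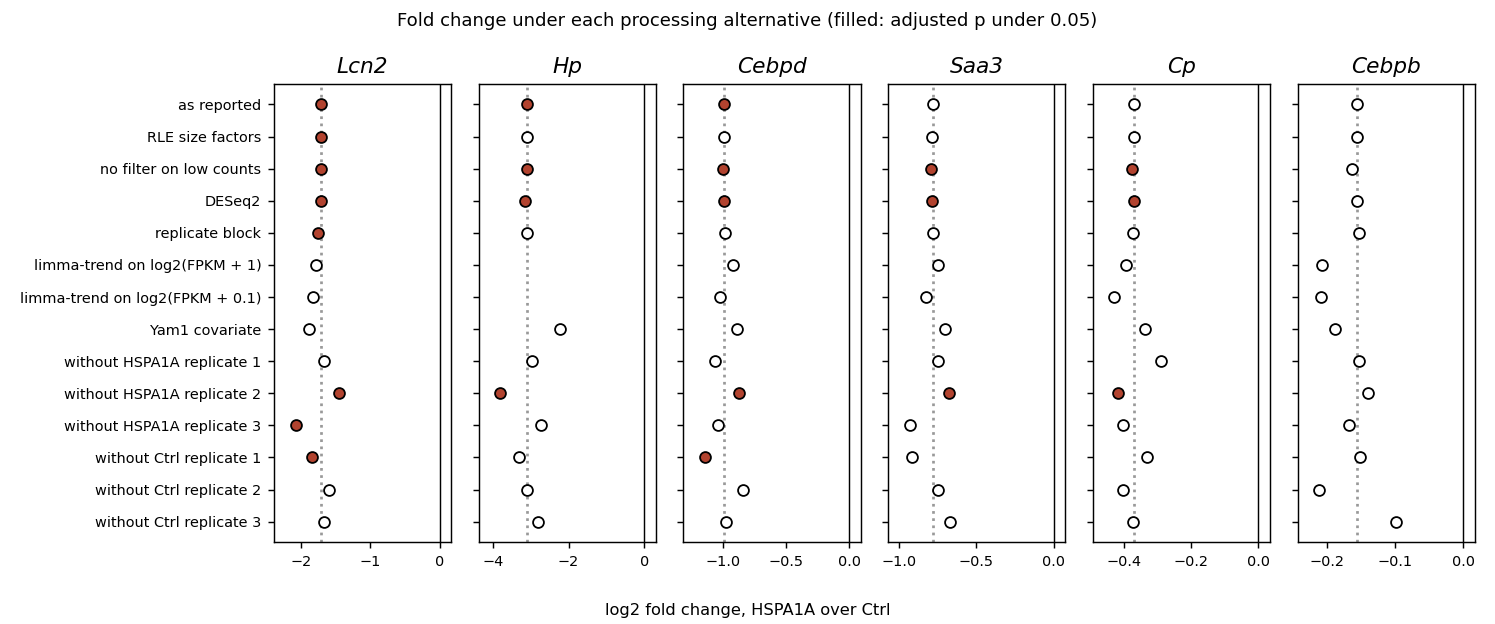
Log2 fold change of HSPA1A over Ctrl (x axes, a scale for each gene) for 6 genes under each processing alternative (rows); filled points have an adjusted p under 0.05 and the dotted line is the value as reported. All points of Lcn2, Hp, Cebpd, Saa3, Cp and Cebpb lie below 0, while the fill changes from row to row; Hp has no FPKM rows, since its mean FPKM is under 1.

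FPKM, a fragment count scaled to gene length and library size, allows levels to be compared between genes. On this scale Cebpb was the highest of the 5 C/EBP genes followed here, at 77.8 ± 1.2 FPKM in HSPA1A and 90.1 ± 6.7 FPKM in Ctrl libraries (SD, n = 3 each). Cebpg followed at 25.8 ± 0.9 and 26.3 ± 0.7 FPKM, then Cebpz at 21.3 ± 1.6 and 20.8 ± 0.3 FPKM, with ranges that did not overlap within either group. Cebpd was at 5.81 ± 0.67 and 12.1 ± 2.7 FPKM and Cebpa at 0.637 ± 0.042 and 0.553 ± 0.071 FPKM. Lcn2 stood at 21.3 ± 8.5 FPKM in HSPA1A and 72.7 ± 13.9 FPKM in Ctrl libraries, with a range that overlapped those of Cebpg and Cebpz in HSPA1A libraries and that of Cebpb in Ctrl libraries. In the Ctrl libraries Cp (11.4 to 12.3 FPKM), Saa3 (8.93 to 12.9 FPKM) and Cebpd (9.28 to 14.6 FPKM) lay within each other's spread, and Hp was far below at 0.44 to 0.91 FPKM.

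The same values give the proportions among 4 C/EBP genes, with Ddit3, a further member of the family, left out of the sum. Of the FPKM summed over Cebpa, Cebpb, Cebpd and Cebpg, Cebpb held 69.7%, 72.2% and 70.2% in HSPA1A libraries 1 to 3 against 70.9%, 67.3% and 71.2% in Ctrl libraries 1 to 3. Cebpd held 5.73%, 4.62% and 5.49% in HSPA1A against 7.35%, 11.77% and 9.01% in Ctrl libraries, without overlap. Cebpg held 23.97%, 22.67% and 23.75% in HSPA1A against 21.3%, 20.5% and 19.4% in Ctrl libraries. Its own level was 25.8 ± 0.9 and 26.3 ± 0.7 FPKM, so its larger share in HSPA1A came with a smaller sum. For each FPKM of Cebpb there was less Cebpd in HSPA1A cells, at 8.22%, 6.41% and 7.83% of the Cebpb level, than in Ctrl cells, at 10.4%, 17.5% and 12.7%. The sum itself was 109 to 111 FPKM in HSPA1A and 124 to 136 FPKM in Ctrl libraries.

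The genes most like 4 of the members were ranked by the root mean square difference of log2 CPM, each gene centred on its own mean over the 6 libraries, among 9717 genes with a mean of at least 5 CPM. Nearest to Lcn2 were the chemokine genes Cxcl1 and Cxcl5, at differences of 0.305 and 0.311, then C3, Ccl2 and Cebpd itself at 0.481. For scale, Lcn2 departed from its own mean by 0.969 and Cebpd by 0.536. The 5 genes nearest to Lcn2 had log2 fold changes from -1.78 to -0.99. Such profiles carry the difference between groups on which the list was chosen, so the ranking is no independent test. Nearest to Cebpd were the chemokine genes Ccl7 (0.127) and Ccl2 (0.159), then Nfkbiz, Relb and Col8a1. Nearest to Saa3 were Ccl5 (0.161), Col8a1, Nfkbiz, Cebpd (0.186) and Fgf7, where Saa3 departed from its mean by 0.443. Cebpb, which departed from its mean by 0.101, was nearest to Cpped1, Zeb1, Ring1, Arhgef3 and Plaa, at 0.026 to 0.039.

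Genes around the 9 in the pathway were taken from 6 further lists. In each list, every fit that left out a library other than HSPA1A library 2 called as many genes as the full fit. Among other acute-phase genes, 30 of 39 were in the table, 14 were tested and 1 was called, the complement gene C3, which was lower. C3 had a mean of 3.65 ± 0.19 CPM in the HSPA1A libraries and 9.55 ± 0.45 CPM in Ctrl libraries (SD, n = 3 each; log2 fold change -1.39, adjusted p = 0.000425, edgeR). The median log2 fold change of the 14 was 0.01, against 0.003 over all tested genes, with values from -1.39 to 0.91. Of the serum amyloid A genes besides Saa3, Saa1 had 1 read over all libraries, in HSPA1A library 1, and Saa2 had 1 read, in Ctrl library 1. Ptx3 and Hpx are named here with their values known. Ptx3, which encodes a pentraxin made outside the liver, was at 4.57 ± 1.93 CPM in the HSPA1A libraries and 7.70 ± 1.30 CPM in Ctrl libraries, which overlapped. Hpx, which encodes the haem-binding protein hemopexin, stood on the other side, at 2.25 ± 0.28 CPM in HSPA1A and 1.34 ± 0.27 CPM in Ctrl libraries, and did not pass the threshold. Without HSPA1A library 2, where 4.94% of all tested genes were called lower and 5.27% higher, Hpx was called higher (log2 fold change 0.81), the metallothionein gene Mt2 lower (-0.54) and C3 lower (-1.35).

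Among the cytokines, receptors and signalling genes that are known to induce the acute-phase response, 22 of 28 were tested and 1 was called lower, Nfkbiz. It encodes IkB zeta, a nuclear cofactor of NF-kB that is known to be needed for Lcn2 induction in mouse cells, and it averaged 23.6 ± 2.5 CPM in the HSPA1A libraries and 44.0 ± 1.7 CPM in Ctrl libraries (SD, n = 3 each; log2 fold change -0.90, adjusted p = 0.000607, edgeR). The 22 log2 fold changes had a median of -0.11, and 16 were negative, against 6283 of the 12827 over all tested genes. Il6, Stat3 and Socs3 are named with their values known. Il6 had a mean of 3.69 ± 1.25 CPM in the HSPA1A libraries and 5.34 ± 0.69 CPM in Ctrl libraries, which overlapped. Stat3, the transcription factor gene of the IL-6 pathway, was at 49.1 ± 1.1 CPM in the HSPA1A libraries and 54.6 ± 0.3 CPM in Ctrl libraries, without overlap and without passing the threshold, and its target Socs3 was at 30.5 ± 4.0 and 30.04 ± 1.07 CPM. Without HSPA1A library 2, 8 of the 22 were called lower, among them Stat3, Lif, Osmr, Rela and Nfkb1, and 0 higher, where 4.94% of all tested genes were called lower and 5.27% higher in that fit. Every other fit called 1 gene of this list.

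Of the leucine zipper partners and regulators of C/EBP factors, 16 of 22 were tested. Neither edgeR nor DESeq2 called any of the 16 (0 calls). An unadjusted p under 0.05 in edgeR was reached by 1 of the 16 and by 1102 of all 12827 tested genes. Their median log2 fold change was -0.03. The most abundant was Ddit3, which encodes CHOP, a stress-induced member of the C/EBP family that is known to form dimers with the others, at 1658 ± 192 CPM in HSPA1A and 1656 ± 53 CPM in Ctrl libraries (SD, n = 3 each). Atf4, whose product drives Ddit3 in the amino acid and endoplasmic reticulum stress response, stood at 1536 ± 11 and 1530 ± 12 CPM. Trib3 and Atf5, further genes of that response, stood at 438 ± 3.7 and 434 ± 8.2 CPM and at 351 ± 32 and 381 ± 6.2 CPM. In FPKM, Ddit3 exceeded Cebpb many times over, at 1691 ± 179 FPKM in HSPA1A and 1760 ± 74 FPKM in Ctrl libraries. Klf4 was called lower in the fit without HSPA1A library 2, as were 4.94% of all tested genes.

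Of 18 genes known as C/EBP targets in other tissues, 7 were tested. Calls numbered 0 in both edgeR and DESeq2, and the median log2 fold change was -0.08. In edgeR 2 of the 7 had an unadjusted p under 0.05, against 1102 of all 12827 tested genes. Ptgs2, the inducible cyclooxygenase gene, averaged 234 ± 10 CPM in the HSPA1A libraries and 247 ± 3.2 CPM in Ctrl libraries (SD, n = 3 each), and Pparg, the gene of the fat cell regulator PPAR gamma, averaged 21.5 ± 0.8 and 21.6 ± 1.4 CPM. Lpl, the lipoprotein lipase gene, had a mean of 37.8 ± 4.1 CPM in the HSPA1A libraries and 29.9 ± 0.7 CPM in Ctrl libraries, and Nos2, the inducible nitric oxide synthase gene, averaged 17.9 ± 8.6 and 24.05 ± 3.9 CPM. In the fit without HSPA1A library 2, Lpl was called higher and Nos2 lower, at log2 fold changes of 0.41 and -0.89, among 5.27% of all tested genes called higher and 4.94% lower.

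The receptors and iron-handling partners of the 4 acute-phase proteins included genes that were nearly absent. The lipocalin 2 receptor gene Slc22a17 had 0, 3 and 1 reads in HSPA1A libraries 1 to 3 against 0, 0 and 3 in Ctrl libraries 1 to 3, and the gene of the haptoglobin-haemoglobin receptor, Cd163, had at most 2 reads in any library. Of 19 genes, 11 were tested and 1 was called lower, the iron importer gene Slc11a2, at 40.8 ± 1.5 CPM in HSPA1A and 60.1 ± 3.4 CPM in Ctrl libraries (SD, n = 3 each; log2 fold change -0.56, adjusted p = 0.00285, edgeR). The median of the 11 was 0.04. The exporter gene Slc40a1, whose product works with ceruloplasmin, stood at 9.19 ± 3.60 CPM in HSPA1A, where library 2 was high, and 7.43 ± 0.46 CPM in Ctrl libraries. Without HSPA1A library 2, 3 of the 11 were called lower and 1 higher, against 4.94% and 5.27% of all tested genes.

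For Cebpz the fitting neighbours are the nucleolar genes of ribosome assembly. All 17 were tested, with 0 calls in edgeR and in DESeq2 and a median log2 fold change of 0.03. With edgeR 0 of the 17 had an unadjusted p under 0.05, against 1102 of all 12827 tested genes. The most abundant were Npm1, at 1874 ± 155 CPM in HSPA1A and 1800 ± 41 CPM in Ctrl libraries, and Ncl, at 1459 ± 165 and 1446 ± 38 CPM (SD, n = 3 each). Nop56, at 576 ± 106 and 528 ± 25 CPM, and Nop58, at 380 ± 61 and 372 ± 12 CPM, showed the same wide spread among the HSPA1A libraries. Nop14, Nop56 and Wdr12 were called higher without HSPA1A library 2, as were Cebpz and 5.27% of all tested genes.

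**Figure D4:**
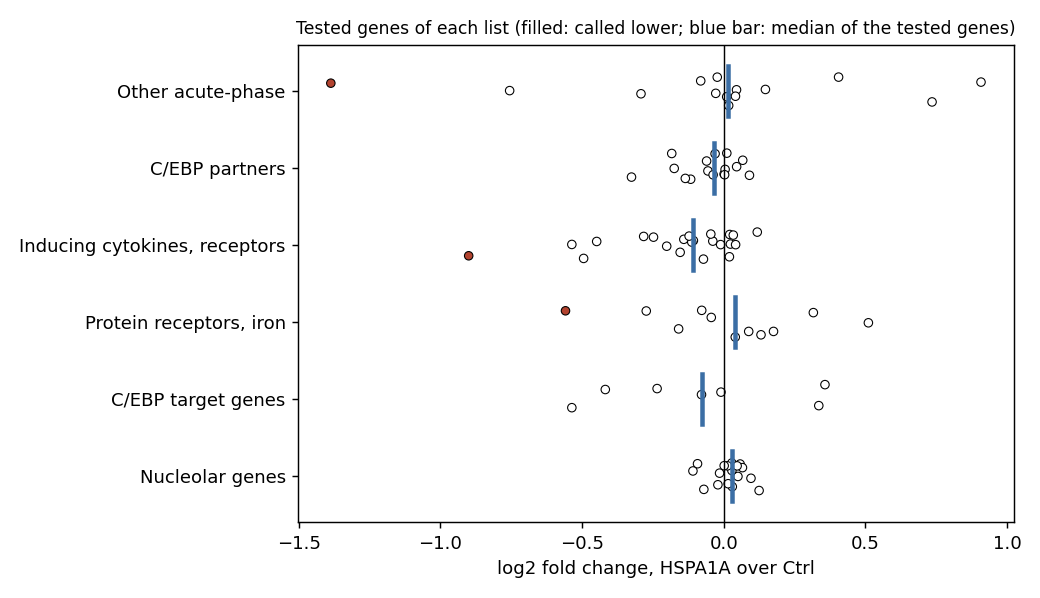
Log2 fold change of HSPA1A over Ctrl (x axis) of each tested gene in the 6 further lists (rows, jittered), filled where called lower; the blue bar is the median of the tested genes. The filled points are C3 at -1.39, Nfkbiz at -0.90 and Slc11a2 at -0.56, and the medians lie between -0.11 and 0.04.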

How the data were processed

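RNA-seq of 6 HL-1 libraries was used, 3 HSPA1A and 3 Ctrl, with groups and replicate numbers taken from the labels. The authors deposited whole read counts for 22913 genes and FPKM for 22833 of them, 1 column per sample. Tools named in the submitters' processing notes are bcl2fastq, TopHat2 and edgeR, and the build is GRCm38. Not given in the sources used here are the counter and its strand setting. Counts were scaled by TMM, filtered with filterByExpr (minimum count 10, minimum total 15, which left 12827 genes, all 9 members among them) and compared by edgeR 4.0.16 (quasi-likelihood test, Benjamini-Hochberg over all tested genes, threshold 0.05) in R 4.3.3, after the code had been tested on simulated data. A gene past the threshold is named as called. Intervals are 95%.

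The alternatives were RLE size factors, no filter, DESeq2 1.42.0, a replicate block, leaving out each library in turn, limma 3.58.1 (limma-trend) on deposited FPKM, as log2 with a pseudocount of 1 or 0.1, for genes with a mean of at least 1, and a Yam1 covariate, which was added after the data were seen. The members and lists were chosen with earlier results of these data known. The text names all members, called genes of each list or otherwise the most abundant 4, and the 5 genes nearest to each of 4 members. Any other gene was named with its value known. Positions are from GENCODE M21 (22729 identifiers matched), and promoters from RefSeq. Overlaps between genes were taken on whole gene spans, introns included. All library pairs differed by more than counting noise, at chi-square values per degree of freedom of 2.79 or more. Figures used matplotlib 3.10.9.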

Additional observations from a re-analysis of the deposited data

How the results depend on the processing

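Over all genes, 3 were called higher and 20 lower. RLE size factors gave 1 higher and 17 lower, no filter on low counts 94 higher and 111 lower, and DESeq2 26 higher and 38 lower. The limma fits of FPKM gave 0 higher, with 15 and 14 lower of 10550 tested genes at pseudocounts of 1 and 0.1. In these fits 181 and 183 genes were higher at an unadjusted p under 0.05. The replicate block gave 3 higher and 13 lower, and the Yam1 covariate 3 higher and 8 lower. Leaving out a library gave 0 to 683 higher and 10 to 640 lower, the highest of both without HSPA1A replicate 2. Of the 9 genes, 5 were called lower with no filter and 1 with RLE size factors (Lcn2), as with the replicate block. With no filter the adjusted p of Lcn2 moved from 0.0192 to 1.05e-116 (edgeR) at log2 fold changes of -1.71 and -1.72. Nothing is therefore read from the calls of the fit with no filter. With FPKM by limma, where Hp and Cebpa were not tested, 0 were called and 5 had an unadjusted p under 0.05. Lcn2, Hp, Saa3, Cp, Cebpb and Cebpd kept a negative log2 fold change in every alternative that gave a value, and Cebpa a positive one. Cebpg was negative with FPKM (-0.024 and -0.025) and with the Yam1 covariate (-0.088), as was Cebpz with that covariate (-0.038). The cause was not tested. Same-numbered libraries correlated at -0.269, -0.13 and 0.105 in their deviations from the group means, and 2 of the 6 libraries correlated best with their own number, so the numbers were not read as pairs. Hp rests on 8 reads in HSPA1A libraries and 74 in Ctrl libraries, the fewest of the 9 genes.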
